A study of Mus musculus with 4 samples.

Results

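The 9 transcription factors that set and maintain macrophage identity were followed through 4 RNA-seq libraries of mouse bone-marrow-derived macrophages. They are Spi1, Cebpa, Cebpb, Cebpd, Maf, Runx1, Zeb2, Mitf and Bhlhe40, chosen by gene symbol, and they make up 9 of the 55536 genes in the deposited tables. The cells were grown from the bone marrow of C57BL/6J mice and sequenced as polyA RNA. All 4 libraries belong to 1 group. These macrophages had received lipid A, the membrane anchor of bacterial endotoxin, at 100 ng/ml for 12 h, had then been kept without it for 12 h, and were collected at 0 min of a restimulation. Another label field calls the pretreatment lipoprotein A. No untreated macrophages were analysed here, so that no value below is an effect of lipid A. The libraries come from separate biosamples with the same donor identifier, and tests over them measure the spread between these libraries, which may be technical. The labels give neither sex nor age.

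PU.1, the protein made from Spi1, is an ETS-family factor that opens chromatin at myeloid enhancers and works there beside C/EBP and RUNX factors. C/EBPα and Runx1 act in blood progenitors, upstream of the monocyte lineage, whereas C/EBPβ and C/EBPδ drive inflammatory and emergency programmes in mature cells. c-Maf, Zeb2, Mitf and Bhlhe40 act later: c-Maf restrains self-renewal and favours Il10, Zeb2 is a repressor that holds tissue macrophage identity, Mitf controls lysosomal and osteoclast genes, and Bhlhe40 is a repressor that limits Il10.

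Expected gene counts were 25594340, 27384162, 48875472 and 57126810 in replicates 1 to 4. Deposited notes listed 6 read files for replicates 1 and 2 but 4 for replicates 3 and 4, a technical difference whose origin is not stated. The mitochondrial share of counts followed the same division, at 0.778% and 1.16% in replicates 1 and 2, against 3.34% and 3.00% in replicates 3 and 4. The share of spike-in rows did so too, at 0.128%, 0.124%, 0.0429% and 0.0419% in replicates 1 to 4. Total kallisto-layout counts over RSEM-layout counts, at 1.31, 1.32, 1.07 and 1.06, also followed it. So did mean fragments in the kallisto-layout tables, at 260, 263, 223 and 233 nt in replicates 1 to 4. In the RSEM-layout tables mean fragments were 254, 260, 260 and 265 nt, not shorter in replicates 3 and 4. Ribosomal RNA took 9.12% of counts in replicate 1, compared with 0.569% to 1.20% in the others. All 10 macrophage markers stood above 10 TPM (a transcript level scaled by length and within each library), from Mertk at 100 TPM to Lyz2 at 9726 TPM. Of 42 markers of 8 other cell types, 36 averaged under 1 TPM; the exceptions were S100a8, S100a9, Cd79b, Hdc, Acp5 and Ctsk. Among neutrophil markers Ly6g was at 0, whereas S100a8 and S100a9 together made up most of a summed level of 85.4, 13.9, 70.6 and 6.39 TPM in replicates 1 to 4. The part of these cells in any result was not tested.

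All 9 factors were detected at 1 TPM or more in every library, and their mean levels ranged from 4.51 to 462 TPM. Spi1, Maf and Zeb2 formed the top of the order, the only members at 100 TPM or more in each library. Cebpb, Mitf, Cebpa and Runx1 followed at 53.9, 34.9, 27.4 and 16.3 TPM, and Bhlhe40 and Cebpd closed the order at 5.95 and 4.51 TPM. The mean of Spi1 lay above that of 97.2% of the 10476 genes with at least 1 TPM in every library, the mean of Runx1 above 47.3% of them and the mean of Cebpd above 15.6%.

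Neighbours in this order were called apart where their log2 ratio had the same sign in all 4 libraries and its mean exceeded its SD. By this rule 4 of 8 neighbouring steps were apart. Spi1 stood above Maf by 1.37 ± 0.24 (log2, SD, n = 4), Zeb2 above Cebpb by 1.81 ± 1.20, Cebpa above Runx1 by 0.65 ± 0.54 and Runx1 above Bhlhe40 by 1.45 ± 0.64. Maf and Zeb2 did not separate, and neither did Cebpb and Mitf, Mitf and Cebpa, or Bhlhe40 and Cebpd. The step from Cebpa to Runx1 was no longer apart in the kallisto-layout tables, a second quantification of the same libraries. It was 0.43 ± 0.53 there. Without replicate 3 it was 0.59 ± 0.64 (SD, n = 3) and not apart either.

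**Figure D1:**
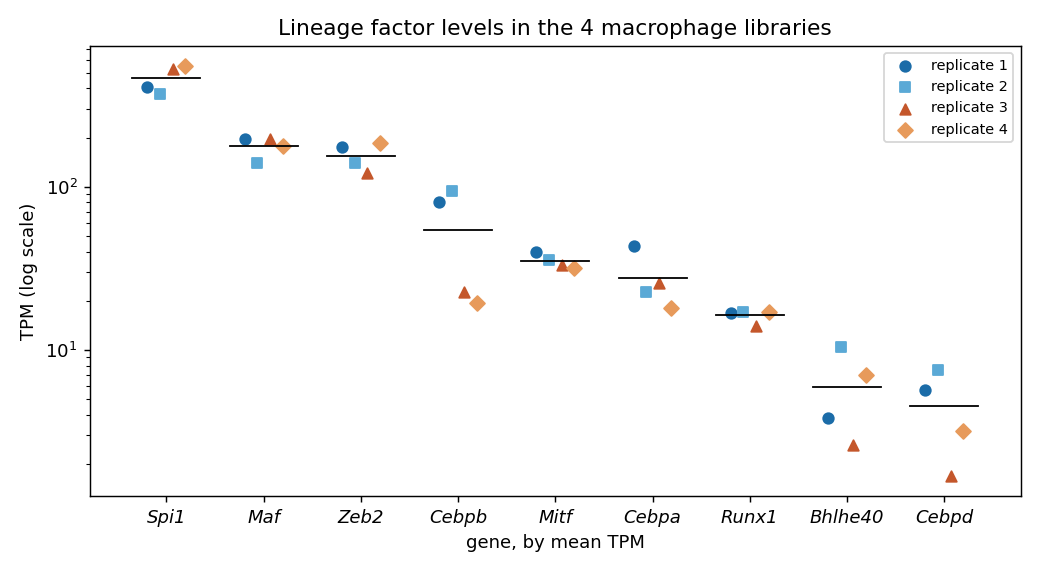
TPM of each factor (log axis) in the 4 libraries, one symbol per replicate, with a line at the mean over libraries. Spi1 sits highest at 370 to 546 TPM, the 4 Runx1 points lie close together, and the Cebpb points split into 80.3 and 93.7 TPM for replicates 1 and 2 and 22.5 and 19.2 TPM for replicates 3 and 4.

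Variation among the libraries differed between the factors. In the RSEM-layout tables Runx1 varied least, with a coefficient of variation of 9.59%, closely followed by Mitf, then Maf at 15.1%, Spi1 at 18.9% and Zeb2 at 19.4%. Cebpa reached 39.9%, and Cebpd, Bhlhe40 and Cebpb 57.1%, 58.6% and 71.6%. In the kallisto-layout tables Mitf varied least, at 8.20%, and Runx1 reached 16.7%.

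To ask whether the factors moved with the recorded technical division, the counts of replicates 3 and 4 were compared with those of replicates 1 and 2 in edgeR, fitted over all 11991 genes that passed the filter on low counts. Every fold change below is replicates 3 and 4 over replicates 1 and 2 in log2, and a gene was called at a Benjamini-Hochberg adjusted p under 0.05. All 9 factors were tested. Of these 9, 1 (Cebpb) was called lower and 0 higher, against 3.72% of all tested genes called lower and 2.08% called higher. Among them 7 had a negative fold change and 2 a positive one, with a median of -0.35 over the 9 and -0.01 over all tested genes. In normalised CPM (counts scaled to library size) 3 factors, Spi1, Cebpb and Cebpd, were lower in both of replicates 3 and 4 than in either of the others, and none was higher. Such lack of overlap was common, at 30.1% of tested genes for lower and 29.0% for higher.

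**Figure D2:**
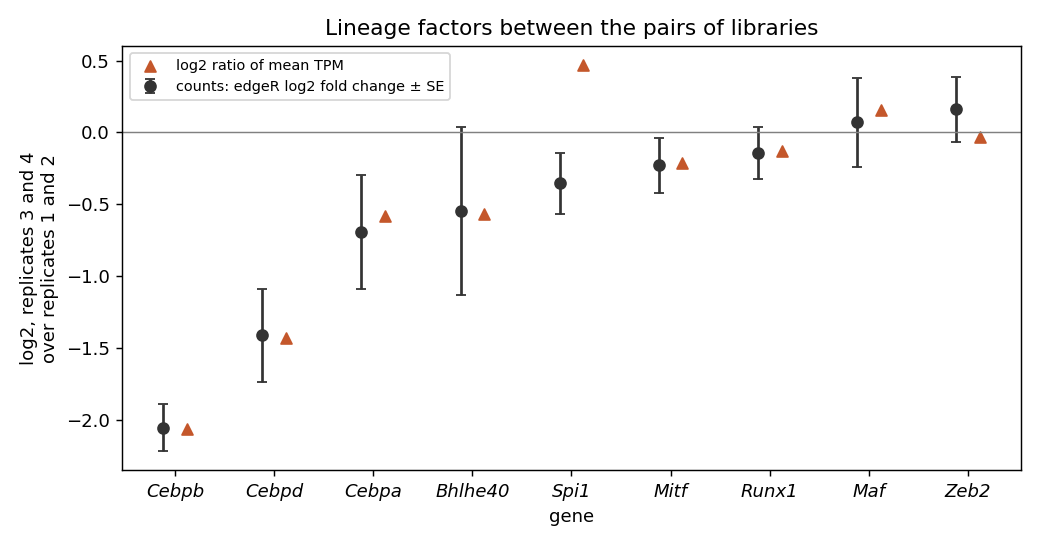
Difference between replicates 3 and 4 and replicates 1 and 2 for each factor on a log2 scale: circles are edgeR fold changes from counts with their SE, and triangles are ratios of mean TPM. Cebpb lies lowest at -2.05, and Spi1 has a negative value by counts (-0.35) and a positive one by TPM (0.47).

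Spi1 (ENSMUSG00000002111.8, chr2:91082390-91115756 in mm10, plus strand) was the most abundant of the factors. Its gene level was 406, 370, 526 and 546 TPM in replicates 1 to 4, 462 ± 87.2 TPM (SD, n = 4). Replicates 3 and 4 were the higher ones by TPM, by 0.47 in log2. By counts the direction was the opposite: normalised counts were 388, 286, 269 and 258 CPM, and edgeR gave a log2 fold change of -0.35 ± 0.21 (SE, adjusted p = 0.325). That value was -0.10 without replicate 1 and -0.08 with offsets for GC content and length, both under 0.3 in size. Opposite signs, each over 0.3 in size, occurred in 0.517% of tested genes, a share computed after the Spi1 values had been seen, and Spi1 was the 1 factor among them.

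The annotated starts divide the Spi1 transcripts into an upstream and a downstream group. Spi1-201, with 2034 nt in 5 exons, holds the only complete coding sequence (816 nt) and starts at 91096096. Spi1-204 and Spi1-202 start 13.7 kb upstream, within 18 bases of each other. Spi1-204 is 544 nt long, of which 410 nt lie in exons of Spi1-201 and 134 nt do not, and its annotated coding sequence is incomplete. Spi1-202 has 613 nt, no coding sequence and no base in common with Spi1-201. Spi1-203, with 402 nt and an incomplete coding sequence, starts at 91096780 and was grouped with Spi1-201.

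Spi1-201 was lower in the libraries where Spi1-204 was higher. Spi1-201 stood at 268, 231, 153 and 144 TPM in replicates 1 to 4, whereas Spi1-204 stood at 42.3, 45.1, 248 and 260 TPM. Both transcripts thus separated replicates 1 and 2 from replicates 3 and 4, in opposite directions. Spi1-202 was at 69.5, 74.6, 113 and 134 TPM, also without overlap. Spi1-203 was lower in replicates 3 and 4, at 26.0, 19.1, 12.0 and 7.48 TPM in replicates 1 to 4. The share of Spi1 TPM with the upstream start was 27.6%, 32.4%, 68.6% and 72.3%.

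The kallisto-layout tables gave the same separation, with smaller differences for Spi1-201 and Spi1-204 and a larger one for Spi1-202. There Spi1-204 was at 89.3, 82.9, 254 and 266 TPM and Spi1-201 at 186, 162, 146 and 137 TPM, with Spi1-202 at 62.8, 69.0, 124 and 150.3 TPM. The upstream start took 41.0%, 43.9%, 69.7% and 73.4% of TPM. Since Spi1-204 and Spi1-202 are short, they held fewer of the reads: 7.23%, 8.71%, 28.9% and 32.0% of the expected Spi1 counts. Counted on transcripts with a complete coding sequence alone, an alternative added after the data were seen, Spi1 averaged 199 ± 60.3 TPM (SD, n = 4) and was no longer apart from Maf.

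**Figure D3:**
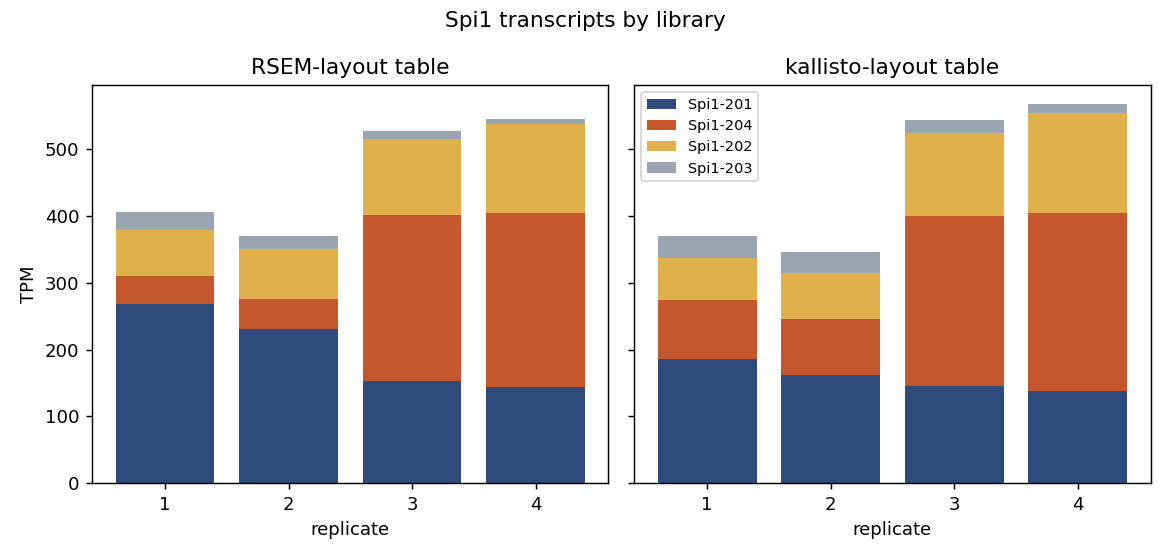
TPM of the 4 Spi1 transcripts stacked by replicate, from the RSEM-layout tables (left) and the kallisto-layout tables (right). On the left Spi1-204 stands at 42.3, 45.1, 248 and 260 TPM in replicates 1 to 4, while Spi1-201, the transcript with the complete coding sequence, stands between 144 and 268 TPM.

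Shifts of this kind were not rare. The main transcript is the one with the largest mean share. By RSEM-layout TPM it moved by 20 percentage points or more without overlap between the pairs of libraries in 3 factors. These were Spi1, Cebpa and Zeb2, of the 8 with several transcripts. For Zeb2 the kallisto-layout tables named another main transcript. Over all genes with several transcripts the share was 19.5%, under a threshold that was chosen after the data were seen. RNA-seq reads were assigned to annotated transcripts here, and 5′ ends were not measured. The part of fragment length in these shifts was not tested.

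Runx1 (ENSMUSG00000022952.17, chr16:92601466-92826149, minus strand), the DNA-binding partner of Cbfb, varied little by RSEM-layout TPM. It stood at 16.8, 17.2, 13.9 and 17.1 TPM, 16.3 ± 1.56 TPM (SD, n = 4). Replicates 1, 2 and 4 lay between 16.8 and 17.2 TPM, and replicate 3 was lower. By kallisto-layout TPM it was at 15.8, 14.4, 14.9 and 20.4, with replicate 4 apart instead. Its log2 fold change was -0.14 ± 0.18 (SE, edgeR adjusted p = 0.635). Cbfb, the subunit that stabilises RUNX proteins on DNA, had a mean of 45.3 ± 9.06 TPM.

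Runx1 is known for 2 promoters far apart, a distal one (P1) and a proximal one (P2), which give proteins with different N termini. The annotated starts lay 129 kb apart. The windows before both RefSeq starts (GRCm38.p6) are shown because reads were assigned to both; capitals mark any of the 9 motifs searched on both strands.
Runx1 distal, chr16:92826150-92826324, minus strand: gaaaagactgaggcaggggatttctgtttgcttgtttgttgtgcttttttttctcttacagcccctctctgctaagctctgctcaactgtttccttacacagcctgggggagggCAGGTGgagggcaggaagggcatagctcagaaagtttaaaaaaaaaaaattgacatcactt
Runx1 proximal, chr16:92697330-92697579, minus strand: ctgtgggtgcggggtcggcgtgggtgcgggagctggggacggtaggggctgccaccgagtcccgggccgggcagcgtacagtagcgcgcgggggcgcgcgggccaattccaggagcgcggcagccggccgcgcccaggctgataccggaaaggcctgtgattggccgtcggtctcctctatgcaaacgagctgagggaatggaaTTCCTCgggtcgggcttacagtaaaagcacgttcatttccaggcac
GC made up 45.0% of the 300 bases of the distal window and 69.0% of the proximal one, against a median of 52.7% over all windows. In the distal window the capitals mark the E2 box on the opposite strand (CACCTG, bound by Zeb factors), found in 20.2% of all 32817 promoter windows. The remaining bases of that window, not printed since they are exonic, hold an E-box (CACGTG, in 7.15% of windows) and 2 RUNX motifs (TGTGGT, in 16.8% of windows). The proximal window holds an ETS core on the opposite strand (GAGGAA, the PU.1 type of site, in 28.3% of windows). These are matches of letters and not measured sites.

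Most Runx1 RNA was assigned to the distal start. Its share of Runx1 TPM was 62.8%, 68.0%, 84.1% and 78.6% in replicates 1 to 4, and the kallisto layout gave 55.6%, 64.3%, 80.1% and 73.0%. The proximal transcript Runx1-202 was at 5.26, 4.02, 1.91 and 2.82 TPM, while the distal Runx1-201 stood between 9.56 and 11.3 TPM in all libraries. The kallisto layout put Runx1-201 at 6.01, 7.07, 9.50 and 10.8 TPM, higher in replicates 3 and 4. In both quantifications the distal share was larger in each of replicates 3 and 4 than in either of the others. No test was made of single transcripts.

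Of the C/EBP factors Cebpb had the highest mean. Cebpb (ENSMUSG00000056501.3, chr2:167688915-167690418, plus strand), an intronless gene for C/EBPβ, stood at 80.3, 93.7, 22.5 and 19.2 TPM. Its counts were 1710, 2166, 967 and 963. Replicates 3 and 4 were lower than both others, with a log2 fold change of -2.05 ± 0.16 (SE, edgeR adjusted p = 0.0166), or 4.14-fold. Cebpb was the single factor that this test called. In these bulk RNA samples fewer cells of a type and less RNA per cell cannot be told apart.

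The bases before the Cebpb start are shown because this is the factor that was called.
Cebpb, chr2:167688665-167688914, plus strand: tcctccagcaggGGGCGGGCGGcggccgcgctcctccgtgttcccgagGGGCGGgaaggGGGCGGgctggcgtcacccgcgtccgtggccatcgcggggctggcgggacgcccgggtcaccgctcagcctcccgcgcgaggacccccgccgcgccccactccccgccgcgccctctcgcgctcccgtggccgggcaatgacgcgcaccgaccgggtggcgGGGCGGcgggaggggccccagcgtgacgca
The capitals in it mark 5 GC boxes (GGGCGG, bound by SP-type factors), some overlapping, a motif present in 35.6% of all promoter windows. None of the C/EBP (TTGCNNAA) and ETS letters occurred in it. A TATA box (TATAAA) stood 21 bases after the start, outside the printed bases. GC made up 80.7% of the window.

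The Cebpb transcript itself is also GC-rich, at 67.2%, the highest value of the 9 main transcripts, which reach down to 40.6% for Zeb2. With offsets for GC content and length fitted per library, the Cebpb fold change shrank to -1.25 ± 0.16 (edgeR adjusted p = 0.0404), or 2.38-fold, a call made for 2.34% of genes in the lower direction. Without replicate 3 or without replicate 4 the size held, at -2.17 and -1.93, but edgeR called no gene at all (adjusted p = 0.174 and 0.222), with 1955 and 1966 genes at an unadjusted p under 0.05. DESeq2 was not run without single replicates. On the opposite strand 312 exonic bases of Cebpb overlap Tmem189, which stood at 81.3 to 104 TPM. The part of the mitochondrial share and of fragment length in the Cebpb difference was not tested.

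Cebpd (ENSMUSG00000071637.5, chr16:15887286-15891031, plus strand) encodes C/EBPδ, an early inflammatory partner of C/EBPβ, and was the least abundant factor. It stood at 5.65, 7.50, 1.69 and 3.20 TPM, resting on 203 to 486 counts per library. Replicates 3 and 4 were again lower than both others. Its log2 fold change of -1.41 ± 0.32 (SE) did not pass edgeR (adjusted p = 0.0620), whereas DESeq2 called it beside Cebpb (adjusted p = 0.0026), as did edgeR without the filter on low counts (adjusted p = 1.27e-05). It shares 562 exonic bases with Spidr on the opposite strand, at 8.02 to 9.68 TPM. DESeq2 and edgeR without the filter called 7.75% and 6.16% of their tested genes lower.

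Cebpa (ENSMUSG00000034957.10, chr7:35119293-35121928, plus strand) encodes C/EBPα, which progenitors need to become granulocytes and monocytes. It stood at 43.1, 22.6, 25.7 and 18.1 TPM, with replicate 1 the highest. The pairs of libraries overlapped, and the log2 fold change was -0.69 ± 0.39 (SE, edgeR adjusted p = 0.304). Without replicate 1 it was 0.0008 (adjusted p = 0.999), so that the difference rested on that library. EdgeR without the filter on low counts called Cebpa (adjusted p = 0.0179).

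Cebpa has 2 annotated transcripts that start 10 bases apart. Cebpa-201 is unspliced with a coding sequence of 1077 nt, and Cebpa-202 lacks part of it, with 477 coding nt. All but 10 nt of Cebpa-202 lie within Cebpa-201. Cebpa-202 took 25.2%, 11.4%, 42.7% and 52.8% of Cebpa TPM, but 4.51%, 4.11%, 22.8% and 29.7% in the kallisto-layout tables. Both gave larger shares in replicates 3 and 4, with different sizes.

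Within libraries Cebpb outweighed Cebpd throughout, by 3.12 ± 0.60 in log2((TPM + 1)/(TPM + 1)) (SD, n = 4; exact sign-flip p = 0.13). Against Cebpa the ratio was 0.88, 2.01, -0.19 and 0.08 in replicates 1 to 4, with no common sign (exact p = 0.375). Against Cebpg, a C/EBP without an activation domain that dimerises with the others, it was 2.23, 2.15, -0.18 and -0.40 (exact p = 0.50). Cebpg itself stood at 16.4, 20.3, 25.7 and 25.7 TPM, higher in replicates 3 and 4. From counts its log2 fold change had the opposite sign, at -0.33 ± 0.14 (SE, edgeR adjusted p = 0.197). By TPM Cebpb was thus the more abundant of that pair in replicates 1 and 2 and Cebpg in replicates 3 and 4.

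Maf (ENSMUSG00000055435.6, chr8:115682942-115707794, minus strand), encoding c-Maf, was the next most abundant factor. It stood at 197, 140, 197 and 177 TPM, 178 ± 26.8 TPM (SD, n = 4), with replicate 2 lowest. Its log2 fold change was 0.07 ± 0.31 (SE, edgeR adjusted p = 0.901). Maf-202, unspliced and 6360 nt long, took 92.1%, 82.2%, 82.6% and 76.8% of Maf TPM, and the spliced Maf-201 took the rest. The kallisto-layout shares of Maf-202 were 92.8%, 83.4%, 83.6% and 77.8%. An antisense gene, Gm15655, overlaps 440 exonic bases of Maf and stood at 124, 76.5, 213 and 335 TPM. Since use of strand in the counting is not stated, reads of this overlap cannot be told apart.

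Zeb2 (ENSMUSG00000026872.17, chr2:44983632-45117395, minus strand), a zinc-finger repressor, followed at 174, 139, 121 and 186 TPM, 155 ± 30.1 TPM (SD, n = 4). Replicate 3 was lowest and replicate 4 highest, so that the pairs overlapped. By kallisto-layout TPM (146, 116, 147 and 223) and by normalised CPM (626, 470, 571 and 654) replicate 2 was lowest instead. Its log2 fold change was 0.16 ± 0.23 (SE, edgeR adjusted p = 0.676). Zeb1, its paralog, which is better known from epithelial-mesenchymal transition, averaged 7.90 ± 1.45 TPM. Zeb2 exceeded it by 4.12 ± 0.12 in log2 (SD, n = 4, higher in 4 of 4; exact p = 0.13).

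By TPM no single transcript carried Zeb2 in all libraries. Of 29 annotated transcripts 8 held 1% or more of its TPM. Zeb2-212, with 9124 nt and the most upstream start, took 18.6%, 26.3%, 62.2% and 33.5%. The next start group, 3.89 kb downstream with 25 transcripts, took most of the rest at 81.1%, 73.4%, 37.3% and 65.1%. By TPM Zeb2-212 passed the sum of that group in replicate 3 alone. As a share of expected counts, which weigh long transcripts up, it took 34.3%, 43.7%, 81.6% and 58.1%, and passed the group in replicate 4 as well. By kallisto-layout TPM it passed the group in no library.

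The quantifications named different main transcripts for Zeb2, the 1 factor of the 9 for which they did. In the kallisto-layout tables Zeb2-212 took 8.86%, 14.2%, 33.3% and 15.8%, and Zeb2-202 was the main transcript. Zeb2-202 shares 5437 of its 5624 nt with Zeb2-212, and both hold a coding sequence of 3645 nt. In either table replicate 3 gave Zeb2-212 its largest share. The antisense gene Zeb2os overlaps 653 exonic bases of Zeb2 and stood at 81.8, 43.5, 149 and 122 TPM.

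Mitf (ENSMUSG00000035158.15, chr6:97807052-98021349, plus strand), a basic helix-loop-helix leucine zipper factor related to Tfeb and Tfe3, also varied little. It stood at 39.7, 35.3, 32.9 and 31.8 TPM, 34.9 ± 3.49 TPM (SD, n = 4). Replicates 3 and 4 were the lower ones there, but the higher ones by kallisto-layout TPM (31.3, 28.2, 34.2 and 32.8), and the pairs overlapped by normalised CPM (118, 88.4, 93.6 and 82.2). The log2 fold change was -0.23 ± 0.19 (SE, edgeR adjusted p = 0.476). Tfec, the family member best known from macrophages, stood at 6.73, 28.0, 21.3 and 22.2 TPM, with replicate 1 far below the others. Mitf was above Tfec in 4 of 4 libraries, by 0.96 ± 0.97 in log2 (exact p = 0.13). Tfe3 and Tfeb averaged 96.1 and 16.8 TPM.

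Mitf is known for a row of alternative first exons, the most downstream of which belongs to melanocytes. Windows before its first and its last RefSeq start are printed because reads were assigned to the start groups there. In the last group most went to Mitf-208, whose annotated start at 97991921 lies past the RefSeq start at 97991783.
Mitf first start, chr6:97806808-97807051, plus strand: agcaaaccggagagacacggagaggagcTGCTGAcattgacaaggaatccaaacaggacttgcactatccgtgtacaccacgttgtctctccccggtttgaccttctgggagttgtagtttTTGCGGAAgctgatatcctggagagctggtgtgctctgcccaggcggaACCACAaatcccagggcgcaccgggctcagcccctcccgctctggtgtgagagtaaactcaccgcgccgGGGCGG
Mitf last start, chr6:97991533-97991782, plus strand: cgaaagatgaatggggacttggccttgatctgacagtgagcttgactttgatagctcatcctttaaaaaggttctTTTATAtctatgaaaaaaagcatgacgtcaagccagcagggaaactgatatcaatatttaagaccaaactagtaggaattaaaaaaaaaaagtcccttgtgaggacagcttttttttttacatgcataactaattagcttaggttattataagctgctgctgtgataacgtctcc
The first window is GC-rich (62.7% of 300 bases), and its capitals mark in order a MARE core (TGCTGA, the type bound by Maf proteins, in 19.5% of windows), a C/EBP motif (in 10.8%), a RUNX motif on the opposite strand and a GC box. The last window has G or C at 120 of its 300 bases, and its capitals mark a TATA box on the opposite strand (in 13.6%). The M-box core CATGTG, in 14.2% of all windows, occurred in neither.

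By RSEM-layout TPM the first start group took 84.7%, 86.4%, 86.5% and 78.8% of Mitf, nearly all of it as Mitf-202. The last group, 185 kb downstream, took 15.1%, 13.4%, 13.4% and 21.2%. In the kallisto-layout tables it took 9.31%, 13.0%, 11.8% and 10.9%. There Mitf-207, another coding transcript of the first group, took 12.6%, 8.91%, 4.04% and 15.6%. As a share of counts the last group was far smaller, at 2.71% to 4.55%. Its main transcript, Mitf-208, took 14.6%, 12.9%, 13.2% and 21.2% of Mitf TPM in the RSEM layout. Mitf-208 has 1074 nt, of which 1041 nt lie within Mitf-202 and 33 nt do not. Few of its bases thus tell it from Mitf-202. The melanocyte genes Dct, Tyr and Tyrp1 were at 0 in all libraries, and the other 2 melanocyte markers, Pmel and Mlana, averaged 0.33 and 0.30 TPM.

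**Figure D4:**
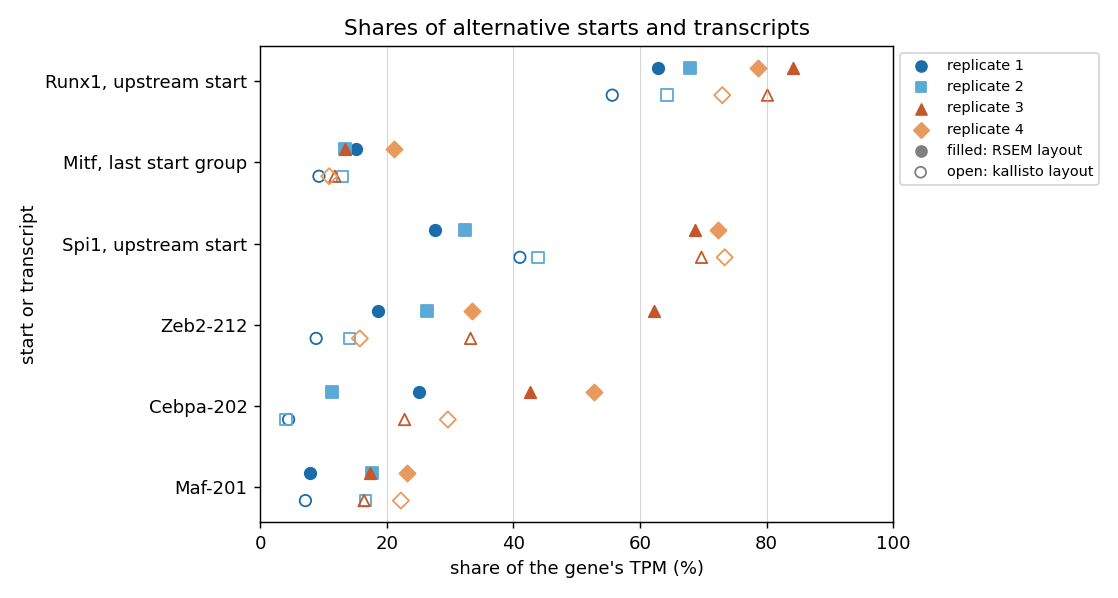
Share of each gene's TPM (percent) held by an alternative start group or transcript, one symbol per replicate; filled symbols are from the RSEM-layout and open symbols from the kallisto-layout tables. Upstream starts of Spi1 and Runx1 and the transcript Cebpa-202 lie further right in replicates 3 and 4 in both, whereas Zeb2-212 is highest in replicate 3.

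Bhlhe40 (ENSMUSG00000030103.11, chr6:108660629-108666925, plus strand), a helix-loop-helix repressor induced by inflammatory stimuli, stood at 3.81, 10.4, 2.61 and 6.99 TPM on 185, 548, 233 and 803 counts. Replicates 2 and 4 were high and replicates 1 and 3 low, so that the pairs of libraries overlapped. The log2 fold change was -0.55 ± 0.58 (SE, edgeR adjusted p = 0.575). Its paralog Bhlhe41 stood higher in 4 of 4 libraries, at 10.5, 18.7, 22.7 and 50.6 TPM. The ratio of Bhlhe40 to Bhlhe41 was -1.86 ± 0.99 in log2 (SD, n = 4; exact p = 0.13), the single pair in which the lineage factor was the less abundant in each library. Bhlhe40-201 held 89.7% to 99.2% of Bhlhe40 TPM in the RSEM layout and 84.55% to 96.51% in the kallisto layout.

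Spi1 outweighed Spib, its lymphoid paralog, by 8.34 ± 0.32 in log2 (SD, n = 4), with Spib at 0.41 ± 0.07 TPM. Runx1 outweighed Runx3, known from T and dendritic cells, by 3.08 ± 0.14, with Runx3 at 1.05 ± 0.29 TPM. Since Spib lies under the pseudocount of 1 and Runx3 near it, these sizes depend on it: with a pseudocount of 0.1 they were 9.80 and 3.86. In 6 of the 8 pairs of related genes the sign was the same in all 4 libraries, and for each of these the exact two-sided sign-flip permutation p was 0.13, the smallest that 4 libraries allow, and 0.167 after Benjamini-Hochberg adjustment over the 8 pairs. The other two pairs, Cebpb with Cebpa and with Cebpg, had adjusted values of 0.429 and 0.50 by the same exact test.

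**Figure D5:**
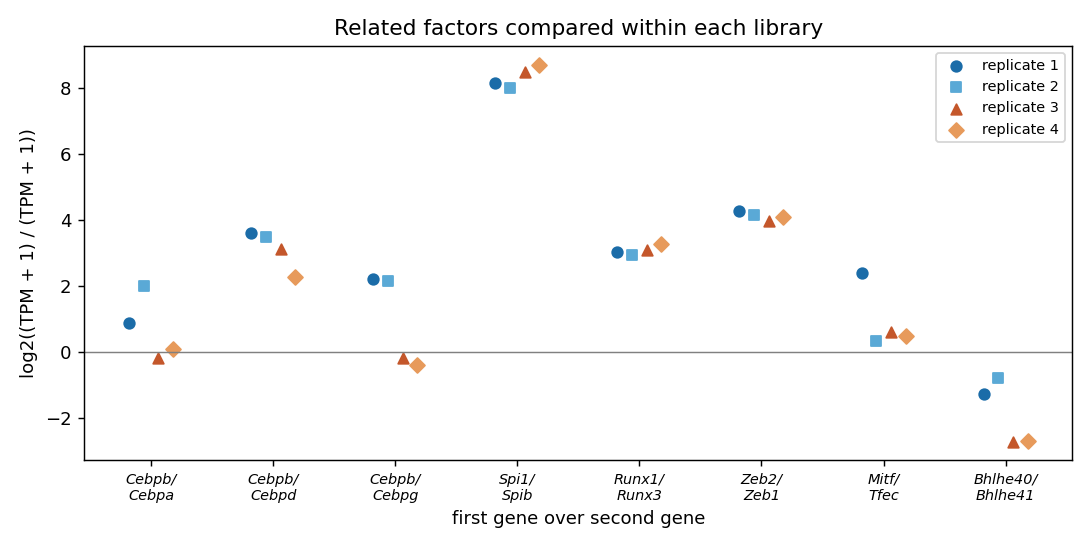
Log2 ratio of TPM + 1 between a lineage factor and a related gene within each library, one symbol per replicate; values above 0 mean that the first gene was more abundant. Zeb2 over Zeb1 lies between 3.96 and 4.26 in all 4 libraries, while Cebpb over Cebpg is 2.23, 2.15, -0.18 and -0.40 in replicates 1 to 4.

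Other transcription factors of myeloid cells were read from a list of 55 genes, 45 of them at 1 TPM or more on average. Of 49 tested, edgeR called 3 lower in replicates 3 and 4 and none higher, against 3.72% and 2.08% of all tested genes, and the median log2 fold change was -0.17. DESeq2 called 7 lower and 1 higher, against 7.75% and 6.42% of its tested genes. Junb, an AP-1 subunit, was at 157, 170, 49.4 and 50.2 TPM (-1.71 ± 0.15, edgeR adjusted p = 0.0187). Ets2 (-1.48 ± 0.20, edgeR adjusted p = 0.0326), an ETS factor downstream of MAP kinases, and Fosl2 (-1.57 ± 0.24, edgeR adjusted p = 0.0358), another AP-1 subunit, were the others. Without replicate 3 or 4 edgeR called none of them, and without replicate 1 Ets2 and Fosl2 missed the threshold (adjusted p = 0.0522 and 0.0562), as did Fosl2 without replicate 2 (adjusted p = 0.0534) and without TMM factors (adjusted p = 0.0643). Ddit3, a C/EBP relative induced by stress, and Id2, an inhibitor of helix-loop-helix factors, were the most abundant of the list at 417 ± 151 and 260 ± 131 TPM.

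Junb was also the listed gene whose profile lay nearest to Cebpb, among 76 listed genes of at least 5 TPM, with a root mean square difference of 0.20 in centred log2 CPM over 4 libraries. Cebpd lay nearest to Ets2 (0.28) and Bhlhe40 to Myc (0.31), a growth regulator. Spi1 lay nearest to Stat3 (0.07), the signal transducer of Il10 and Il6 receptors, and Zeb2 to Etv6 (0.04), an ETS repressor. Runx1 lay nearest to Adgre1 (0.04), which encodes F4/80, Mitf to C1qb (0.07), a complement chain, and Cebpa to Msr1 (0.11), a scavenger receptor. These are descriptions over 4 libraries, of which replicates 3 and 4 had more counts than replicates 1 and 2.

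Genes held to be under the control of these factors formed a list of 24, of which 23 had a row and 22 were tested. Lyz2, the lysozyme gene, and Gpnmb, a Mitf target in other cells, were the most abundant at 9726 ± 1479 and 9648 ± 6870 TPM. No gene of this list was called by edgeR, 4 of 22 had an unadjusted p under 0.05, against 28.5% of all tested genes, and DESeq2 called Cd68 and Gpnmb higher, against 6.42% of its tested genes. Gpnmb stood at 3946, 4378, 11887 and 18381 TPM, with a log2 fold change from counts of 0.69 ± 0.29 (SE, edgeR adjusted p = 0.184). Csf1r, the M-CSF receptor and a classical PU.1 target, stood at 307, 347, 425 and 518 TPM with a log2 fold change from counts of 0.05. For Gpnmb and Csf1r the rise in replicates 3 and 4 was larger by TPM than by counts, and only counts were tested. Fold changes were negative for 16 of the 22 genes, and their median was -0.30, against -0.01 over all tested genes.

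Corepressors and partners of the factors were measured on 17 genes, of which 16 were tested. Mafg, a small Maf protein that dimerises with larger ones, was called lower by edgeR, at 26.2, 37.6, 13.7 and 19.9 TPM (-1.02 ± 0.17, adjusted p = 0.0395), a call lost without any 1 of the replicates (adjusted p from 0.0553 to 0.223) and without TMM factors (adjusted p = 0.0663). No other gene of the list passed edgeR, against 3.72% of all tested genes called lower and 2.08% called higher. DESeq2 called Mafg and Maff lower and Hdac2 higher, against 7.75% and 6.42% of its tested genes. The median log2 fold change was 0.04. Ddit3, present in this list too, and Ncor1, a corepressor, were the most abundant, the latter at 134 ± 63.1 TPM.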

How the data were processed

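PolyA RNA of 4 libraries was measured. Per the file headers, the authors deposited expected counts and TPM per gene and transcript in the column layout of RSEM, with each transcript's percent of its gene, and estimated counts and TPM per transcript in the layout of kallisto; program names and versions: not given in the sources used here. Per the deposited notes, mm10 and GENCODE M21 were used. Deposited TPM are scaled within a library; deposited expected counts are not normalised.

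The factors, lists, pairs and tests were chosen with earlier results of these data known. Gene rows were joined by identifier to GENCODE M21 (55536 genes); 97 spike-in and 26248 tRNA rows were left out. Expected counts were rounded and fitted with edgeR 4.0.16 (R 4.3.3) by its quasi-likelihood test (TMM factors, filterByExpr at 10 counts or more, Benjamini-Hochberg threshold 0.05); DESeq2 1.42.0 was the alternative. SE is the absolute fold change over the root of the F statistic. A count of 0 allows up to 3 counts, or 0.0525 to 0.117 CPM, for counting error only. The edgeR step was run on simulated counts drawn independently for each library. These held no difference between libraries in GC content, fragment length or mitochondrial share, so the run does not bear on such differences. Pairs used log2((TPM + 1)/(TPM + 1)) with exact sign-flip permutation. Starts within 2 kb of the next formed a start group. Shares are of the gene's summed transcript TPM. RefSeq promoter windows (GRCm38.p6, 250 bases before to 50 after a start) were at hand for 5 of the 9 factors; printed bases stop at the first annotated exon of the gene. Python 3.11.15, pandas 2.3.3 and matplotlib 3.10.9 made the tables and figures.

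Named were all 9 factors, the genes of the pairs, in each list the genes edgeR called and the 2 of highest mean TPM, and for 8 factors the nearest listed gene in centred log2 CPM among those of at least 5 TPM; any other gene was picked with its values in view. The alternatives changed normalisation, filter, pseudocount, quantification or tool, or dropped 1 replicate at a time. Emr4 had no row under that name and was left out. Of the lists, 1 gene and the pair that holds it are not reported here.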

Additional observations from a re-analysis of the deposited data

Results flagged for a closer look

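Of 24 sets of 4 library values that were not all equal (levels, pair ratios and main transcript shares), 3 held a library whose gap to its nearest neighbour, divided by the range of the 4, passed Dixon's critical value for 4 values. Chance alone gives about 1 in 20 such sets.

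Runx1 was at 13.9 TPM in replicate 3 and between 16.8 and 17.2 TPM in the others, a quotient of 0.904. By kallisto-layout TPM Runx1 was at 15.8, 14.4, 14.9 and 20.4, and replicate 3 did not stand apart. The log2 ratio of Mitf to Tfec was 2.40 in replicate 1 and 0.33 to 0.60 in the others, a quotient of 0.866. Tfec was the gene of that pair with the outlying level, at 6.73 TPM in replicate 1, the library with 9.12% ribosomal RNA. The share of Bhlhe40-201 was 89.7% in replicate 3 and 98.3% to 99.2% in the others, a quotient of 0.903. The retained-intron transcript Bhlhe40-203 took 9.58% there on 1.07 expected counts and was at 0 elsewhere. By kallisto-layout TPM the share of Bhlhe40-201 was 84.55%, 88.78%, 91.74% and 96.51%, and replicate 3 did not stand apart.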

How the results depend on the processing

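No paired analysis was possible because the series has 1 group. The count of factors called in the comparison of libraries was 1, and it stayed 1 under DESeq2 size factors, kallisto-layout counts, the offsets and both other library sizes. It was 3 without the filter on low counts, 2 with DESeq2, and 0 to 1 when each replicate was left out in turn. Over all genes 696 were called by edgeR, 2569 without the filter, 304 without TMM factors (an alternative added after the data were seen), 1848 with DESeq2, and 0 to 671 when each replicate was left out. Without replicate 3 or 4 the lone library was assumed to vary like the other pair.

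Directions turned on single libraries for 6 factors. Over the fits without 1 replicate each, the log2 fold change ranged from -1.15 to 0.0008 for Cebpa, -0.284 to 0.0278 for Runx1, -0.42 to 0.00709 for Mitf, -0.28 to 0.55 for Maf, -0.0318 to 0.397 for Zeb2 and -1.51 to 0.178 for Bhlhe40. Dropping replicate 1 turned Cebpa, Runx1 and Mitf, dropping replicate 2 turned Maf, Zeb2 and Bhlhe40, and dropping replicate 3 turned Maf and Bhlhe40. Cebpb, Cebpd and Spi1 kept a negative sign in all alternatives run. The counts of neighbours apart, of pairs with 1 sign and of main transcripts at 50% or more stayed within 1.5 times. No pair reversed under another pseudocount, quantification or left-out replicate. Depth limits Cebpd and Bhlhe40, with 185 to 803 counts per library.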
